A study of Homo sapiens with 4 samples.

Results

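The genes described here are 10 members of the transforming growth factor beta (TGF-beta) pathway, measured by RNA sequencing in TU-177 cells with and without knockdown of SKA3. They were chosen by name, with earlier results of these data known, from the 28729 genes of the deposited table. Ensembl identifiers were matched to gene symbols. All 10 were found, and all 10 passed the filter used for testing, a mean of at least 1 FPKM over the libraries. FPKM divides a gene's fragments by the length of its exons and by the size of the library. The members are the ligands TGFB1 and TGFB2, the receptors TGFBR1, TGFBR2 and TGFBR3, the receptor-activated SMAD2 and SMAD3, their partner SMAD4, the inhibitory SMAD7, and TGFBI, a secreted matrix protein induced by TGF-beta.

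TU-177 is labelled as a line of human laryngeal squamous cell carcinoma (LSCC). There were 4 libraries, 2 of cells that received a negative-control construct (NC) and 2 of cells that received a short hairpin RNA against SKA3 (SKA3-KD). By the labels, the construct came in by lentivirus and puromycin selection followed in both groups. The study's methods also describe SKA3 knockdown by siRNA and by sgRNA with Cas9, so the route given here rests on the labels. The labels do not say whether 1 hairpin or several were used or whether each library came from a separate culture, so p-values measure the spread between these libraries, which may be technical. SKA3, a subunit of the complex that couples kinetochores to spindle microtubules, stood at 9.40 and 9.64 FPKM in the NC libraries and at 3.77 and 4.12 after knockdown, a log2 difference of -1.09 (SE 0.07, adjusted p = 0.00806 by limma), so the direction goes with the labels.

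Markers of the labelled cell type were checked first. Of 10 squamous epithelial markers 9 were analysed, and SFN (133 to 155 FPKM), DSP (65.8 to 68.7), KRT17 (29.4 to 49.1) and EPCAM (2.73 to 2.95) were present in every library. The basal keratins KRT5 and KRT14, KRT6A, the squamous transcription factor TP63 and the adherens junction gene CDH1 were each below 1 FPKM in every library, and KRT5 and KRT14 were listed at 0 in 3 of the 4. These 5 go against the squamous label, and the identity of the line was not tested. KRT17 fell in SKA3-KD (log2 fold change -0.53, adjusted p = 0.0396, limma). Of 7 fibroblast markers analysed, COL1A2, LUM and THY1 were near 0, COL3A1 stayed below 1 FPKM, and COL1A1, PDGFRB and DCN were present. The summed level of these 7 was 15.4 and 15.8 FPKM in NC and 8.89 and 9.59 in SKA3-KD, mostly through DCN. They did not all fall. Of the 3 that passed the filter, both SKA3-KD libraries lay below both NC libraries in 2 and above them in 1, PDGFRB. PDGFRB stood at 2.88 and 2.46 FPKM in NC and at 3.19 and 4.13 in SKA3-KD (log2 fold change 0.34, adjusted p = 0.165, limma). DCN, a matrix proteoglycan that binds TGF-beta, stood at 8.40 and 8.36 FPKM in NC and at 2.48 and 2.35 in SKA3-KD (log2 fold change -1.46, adjusted p = 0.0065, limma). The endothelial markers analysed summed to at most 0.0968 FPKM. PTPRC and CD68, which mark leukocytes and macrophages, did not exceed 0.0507 FPKM. The part of these marker differences in the results below was not tested, and fewer cells of a type cannot be told apart from less RNA per cell in bulk libraries.

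TGF-beta is secreted in a latent form, bound to latent TGF-beta binding proteins in the matrix, and is released there by integrins and proteases. The freed ligand binds the type II receptor TGFBR2, which phosphorylates the type I receptor TGFBR1. TGFBR1 in turn phosphorylates SMAD2 and SMAD3, which enter the nucleus with SMAD4 and bind DNA next to other transcription factors. SMAD7 is induced by the pathway and blocks TGFBR1, and TGFBR3, also called betaglycan, presents ligand to TGFBR2 and is of particular use to TGFB2. In normal squamous epithelium the pathway restrains growth, and in carcinomas it is known for its link to invasion and to epithelial-mesenchymal transition.

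Promoter sequences are shown for TGFBR2, the member past the threshold, and for both ligands, whose levels were higher in both SKA3-KD libraries. Each window covers 300 bases around an annotated start, most of them upstream of it, 5′ to 3′, from RefSeq on GRCh38.p14, and all 10 members matched by symbol. Where several starts are listed, the window nearest the 5′ end of the gene in GENCODE 29 was taken. Capitals mark 3 short motifs on either strand, the SMAD box CAGAC or GTCTG, the GC box GGGCGG or CCGCCC, and the AP-1 site TGAGTCA or TGACTCA.
TGFBR2, plus strand, chr3:30606351-30606650: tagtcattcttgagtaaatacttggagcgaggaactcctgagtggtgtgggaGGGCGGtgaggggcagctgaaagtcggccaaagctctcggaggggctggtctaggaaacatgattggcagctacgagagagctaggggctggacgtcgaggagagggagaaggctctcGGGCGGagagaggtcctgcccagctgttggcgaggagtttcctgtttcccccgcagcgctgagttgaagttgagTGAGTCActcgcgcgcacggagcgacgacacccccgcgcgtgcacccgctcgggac
TGFB1, minus strand, chr19:41353873-41354172: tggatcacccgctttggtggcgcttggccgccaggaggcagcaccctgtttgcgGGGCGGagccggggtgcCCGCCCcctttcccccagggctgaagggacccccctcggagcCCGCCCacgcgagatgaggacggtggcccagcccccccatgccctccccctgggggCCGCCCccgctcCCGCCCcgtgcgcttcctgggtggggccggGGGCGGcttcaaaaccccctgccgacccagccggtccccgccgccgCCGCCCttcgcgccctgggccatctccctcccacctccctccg
TGFB2, plus strand, chr1:218345086-218345385: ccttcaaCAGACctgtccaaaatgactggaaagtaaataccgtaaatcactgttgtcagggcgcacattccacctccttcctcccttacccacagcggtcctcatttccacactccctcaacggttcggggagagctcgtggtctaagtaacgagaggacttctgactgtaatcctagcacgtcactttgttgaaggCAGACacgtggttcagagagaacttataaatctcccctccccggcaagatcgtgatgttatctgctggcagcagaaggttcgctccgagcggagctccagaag
The TGFBR2 window holds 2 GC boxes, 1 AP-1 site and no SMAD box. The TGFB1 window holds 7 GC boxes and neither of the other motifs, and 77.3% of its bases are G or C. The TGFB2 window holds 2 SMAD boxes and no GC box, with 51.7% G or C, so the promoters of the ligands differ in both respects. Of all 35116 windows in the table, 45.3% hold a SMAD box, 45% a GC box and 4.95% the AP-1 site, and a match describes letters only. Over the 10 members, SMAD boxes were found in the windows of TGFB2, TGFBR1, SMAD3 and SMAD7, GC boxes in those of TGFB1, TGFBR2, TGFBR3, SMAD2, SMAD3, SMAD4 and TGFBI, and the AP-1 site in that of TGFBR2 alone.

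FPKM is divided by gene length, so levels can be set beside each other between genes as far as the exon lengths used hold. The order and the percentiles below depend on those lengths. TGFBR1 was the highest member in every library and TGFB1 came next. The mean level in NC was 43.0 FPKM for TGFBR1, 20 for TGFB1, 12.6 for SMAD2, 12.3 for TGFBR2, 10.1 for TGFBR3, 10.0 for SMAD7, 5.67 for SMAD3, 4.91 for TGFBI, 3.30 for SMAD4 and 2.14 for TGFB2. In that order the NC values of SMAD2 and TGFBR2 overlapped, as did those of TGFBR3 and SMAD7, and the values of the other neighbours did not. TGFBR1 lay at the 92.3rd percentile of mean FPKM among the genes tested, SMAD3 at the 51.4th and TGFB2 at the 24.4th. In SKA3-KD, TGFBR2 stood ahead of SMAD2, at 21 against 11.4 FPKM, and TGFB2 and SMAD4 shared the last 2 places in an order that differed between the libraries.

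**Figure D1:**
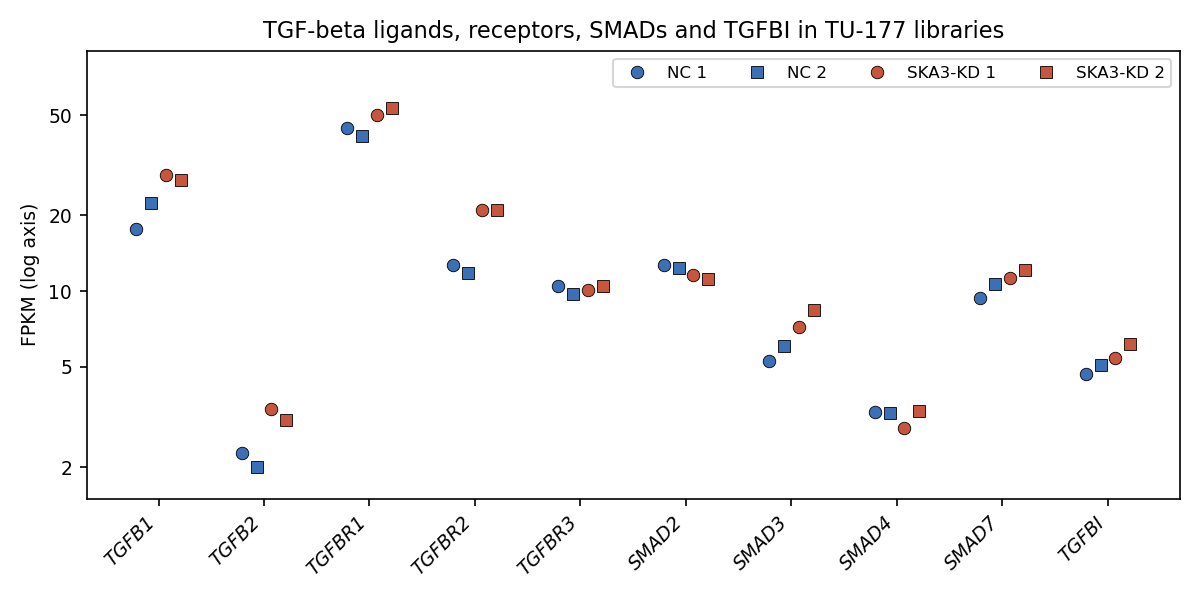
FPKM of the 10 genes (log axis) in each of the 4 libraries, with NC in blue and SKA3-KD in red, circles for replicate 1 and squares for replicate 2. Both SKA3-KD points lie above both NC points for TGFB1, TGFB2, TGFBR1, TGFBR2, SMAD3, SMAD7 and TGFBI, below them for SMAD2, and among them for TGFBR3 and SMAD4.

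SKA3-KD was compared with NC for every gene by limma on log2(FPKM + 1), over 12645 genes. Among the 10 members 1 was higher past an adjusted p-value of 0.05 and 0 were lower, where 6.16% of all genes tested were called higher and 6.11% lower. At an unadjusted p-value under 0.05, 5 members were higher and 0 lower. At that limit 16.2% of all genes tested were higher, and 1912 of the 12645 were lower. Both SKA3-KD libraries lay above both NC libraries in 7 members, where this held for 32.3% of all genes tested, and below them in 1, where it held for 29.2%. The groups were thus apart in 8 members, beside 61.6% of all genes tested. The median log2 fold change of the members was 0.23, and that of all genes tested was 0.01. With this size of group an exact two-sided permutation test cannot go below p = 0.333, so limma's estimate of the spread, pooled over genes, carries the p-values. The count of members called higher depended on the processing. It was 4 with a mean of at least 5 FPKM, 5 with limma voom on reads recovered from the FPKM steps and 5 after correcting for base composition and exon length, while leaving out any 1 library gave 0. The share of all genes tested called higher moved too, to 13.6%, 14% and 10.7% under the first 3 of these settings and to at most 0.364% with a library left out.

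TGFBR2, the receptor that binds the ligand first, rose most. The NC libraries held 12.7 and 11.8 FPKM of it and the SKA3-KD libraries 20.9 and 21. The SKA3-KD libraries stood close together and far above both NC libraries. The means were 12.3 ± 0.628 (SD, n = 2) and 21 ± 0.12 (SD, n = 2), a ratio of 1.71. Between 501 and 1167 reads per library stood behind these values, with a counting error of at most 4.47%. The log2 fold change was 0.73 (standard error 0.07, 95% interval 0.56 to 0.90, adjusted p = 0.0103, limma). It was past the threshold in every alternative with all 4 libraries, from 0.72 to 0.77. Leaving out 1 library kept it between 0.68 and 0.78, but none of these 4 fits passed, with adjusted p-values of 0.066 without NC 1, 0.06 without NC 2, 0.0602 without SKA3-KD 1 and 0.0548 without SKA3-KD 2. TGFBR2 (ENSG00000163513) lies on the plus strand of chromosome 3 of GRCh38, from 30606502 to 30694142.

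TGFBR1, the kinase that TGFBR2 activates, stood at 44.6 and 41.4 FPKM in NC and at 50.1 and 53.4 in SKA3-KD. The groups did not overlap, and the gap between them was smaller than for TGFBR2. Its log2 fold change was 0.26 (standard error 0.07, 95% interval 0.09 to 0.44, adjusted p = 0.0712, limma). The gene (ENSG00000106799; chromosome 9, plus strand, 99104038 to 99154192 on GRCh38) was the best covered member, with 2555 to 4311 reads in a library. The ratio of TGFBR1 to TGFBR2 FPKM was 3.51 in both NC libraries and 2.40 and 2.54 in SKA3-KD.

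TGFBR3, the co-receptor, did not separate the groups. Its FPKM was 10.5 and 9.78 in NC and 10.1 and 10.5 in SKA3-KD, and the groups overlapped. The log2 fold change was 0.02 (95% interval -0.16 to 0.20, adjusted p = 0.875, limma). The ratio between its means was 1.01, against 1.2 for TGFBR1 and 1.71 for TGFBR2.

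The ligands were both higher in SKA3-KD without passing the threshold. TGFB1 stood at 17.6 and 22.4 FPKM in the NC libraries and at 28.8 and 27.7 in the SKA3-KD libraries. The 2 NC libraries differed more than the 2 SKA3-KD libraries, by 0.33 against -0.06 on the log2 scale (replicate 2 minus replicate 1), and NC 1 was the lowest. The log2 fold change of TGFB1 was 0.49 (standard error 0.12, 95% interval 0.18 to 0.79, adjusted p = 0.0627, limma), and it was 0.32 without NC 1 and 0.65 without NC 2. TGFB1 (ENSG00000105329) lies on the minus strand of chromosome 19, from 41301587 to 41353911 on GRCh38. HNRNPUL1, on the opposite strand, shares 215 bases or 6.6% of its exons at 70.1 to 74.7 FPKM, and the use of strand in the counting is not given in the sources used here.

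TGFB2 was the ligand with the lower level, at 2.27 and 2.0 FPKM in NC and 3.41 and 3.09 in SKA3-KD. Both SKA3-KD libraries lay above both NC libraries. The log2 fold change was 0.44 (standard error 0.11, 95% interval 0.17 to 0.71, adjusted p = 0.0598, limma), and the ratio of the means was 1.52. It rested on 93 to 188 reads per library, with a counting error of up to 10.4% in a library. On log2(FPKM + 1) a change at this level is understated, and with a pseudocount of 0.1 the value was 0.59. TGFB2 (ENSG00000092969; chromosome 1, plus strand, 218346235 to 218444619 on GRCh38) shares 26.6% of its exon bases with the non-coding TGFB2-OT1 on the same strand, not analysed here. TGFB1 exceeded TGFB2 by 7.75 and 11.2 times in NC and by 8.44 and 8.94 times in SKA3-KD, ranges that overlap.

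Of the signal-carrying SMADs, SMAD3 was higher and SMAD2 slightly lower in SKA3-KD. SMAD3 stood at 5.30 and 6.04 FPKM in NC and 7.19 and 8.44 in SKA3-KD, with a log2 fold change of 0.40 (standard error 0.10, 95% interval 0.13 to 0.67, adjusted p = 0.0708, limma). Its groups did not overlap, and SKA3-KD 2 was the highest. SMAD3 (ENSG00000166949) lies on chromosome 15, plus strand, from 67063763 to 67195195 on GRCh38.

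SMAD2 stood at 12.7 and 12.4 FPKM in NC and at 11.6 and 11.2 in SKA3-KD. Its log2 fold change was -0.13 (95% interval -0.29 to 0.03, adjusted p = 0.234, limma). It was the 1 member in which both SKA3-KD libraries lay below both NC libraries. The ratio of SMAD2 to SMAD3 FPKM was 2.40 and 2.05 in NC and 1.61 and 1.33 in SKA3-KD, so SMAD2 remained the higher of the pair in every library. The ratio depends on the exon lengths used and was not tested beyond these values.

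SMAD4, the partner that both need, was at 3.31 and 3.28 FPKM in NC and at 2.87 and 3.33 in SKA3-KD. The SKA3-KD libraries lay on either side of the NC libraries, and the log2 fold change was -0.07 (95% interval -0.32 to 0.18, adjusted p = 0.677, limma). SMAD7, the inhibitor, was at 9.39 and 10.7 FPKM in NC and at 11.3 and 12.1 in SKA3-KD. The groups did not overlap, but the gap between NC 2 and SKA3-KD 1 was smaller than that between the NC libraries. Its log2 fold change was 0.21 (95% interval -0.01 to 0.42, adjusted p = 0.173, limma), and it was 0.12 without NC 1.

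TGFBI, which encodes a matrix protein and is used as a readout of the pathway, was at 4.70 and 5.11 FPKM in NC and at 5.42 and 6.17 in SKA3-KD. Both SKA3-KD libraries were higher, SKA3-KD 2 by more. Its log2 fold change was 0.20 (95% interval -0.03 to 0.43, adjusted p = 0.21, limma), and it was 0.12 without SKA3-KD 2.

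**Figure D2:**
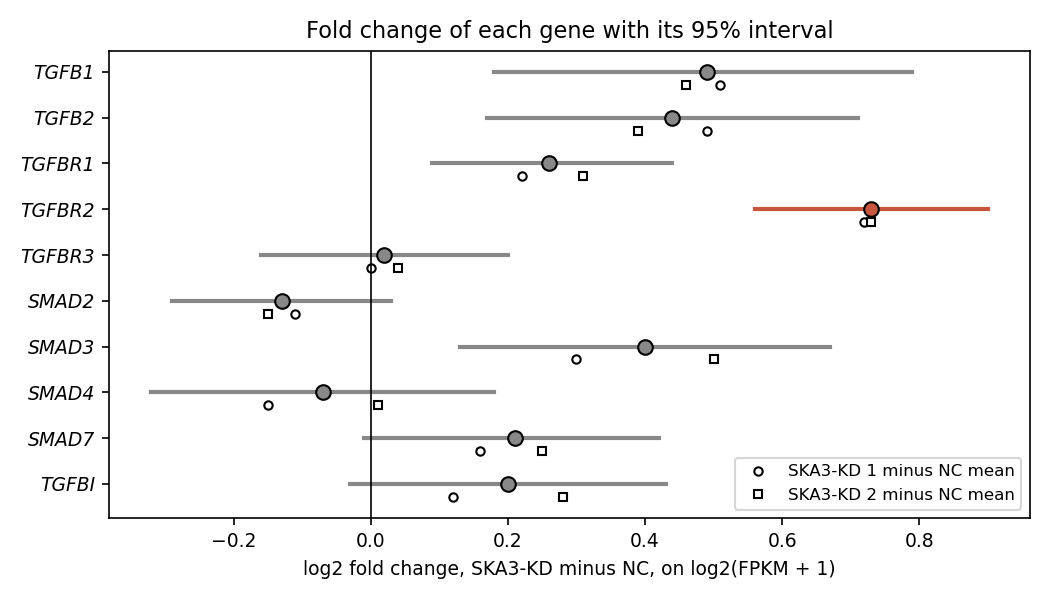
Log2 fold change (SKA3-KD minus NC, on log2(FPKM + 1)) of each gene as a filled point with its 95% limma interval as a line, red where the adjusted p is under 0.05, and each SKA3-KD library minus the NC mean as open symbols. The interval of TGFBR2 (0.56 to 0.90) is the 1 in red, those of TGFB1, TGFB2, TGFBR1 and SMAD3 lie above 0, and the other 5 include 0.

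TGFBR2 had the largest fold change of the members. The genes whose profile over the 4 libraries was nearest to its own were ENSG00000238390, CPNE8-AS1 and RALB. Their Euclidean distances from its centred log2(FPKM + 1) profile were 0.0242, 0.0283 and 0.0462. RALB, a small GTPase, stood at 22.5 and 21.8 FPKM in NC and at 38.0 and 37.2 in SKA3-KD. A profile of 4 points separates little beyond the groups. CPNE8-AS1 is an antisense gene, so its reads may belong to the opposite strand.

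The other genes of the TGF-beta and BMP pathways were taken from 6 lists of 85 genes in all. The lists, too, were chosen with earlier results of these data known. Of the 85 genes 84 were in the table and 58 passed the filter, while the 1 not in it, NRROS, is not analysed here. In SKA3-KD 9 were higher and 6 lower past the threshold, against the same 6.16% and 6.11% of all genes tested. The median log2 fold change over the 58 was 0.10. Without the filter on low values 1 was called in each direction, and with any 1 library left out at most 1 was called higher and 2 lower, so the calls below rest on all 4 libraries. The calls of BMP6, ITGB5, SMAD6, FKBP1A, CDKN1A and ANGPTL4 were also lost without a mean-variance trend in limma, with adjusted p-values from 0.0519 to 0.08.

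The ligands differed among themselves. BMP2, a bone morphogenetic protein, was the highest of them in NC, at 40.3 and 39.6 FPKM, and stood at 23.2 and 24.1 in SKA3-KD. It fell by 0.73 (log2, SE 0.06, adjusted p = 0.00888, limma). BMP6 rose, from 19.3 and 22.0 to 28 and 26.8 FPKM (log2 fold change 0.39, standard error 0.08, adjusted p = 0.0427, limma). It did not pass under either other scaling (adjusted p = 0.0502 and 0.0523, limma), without the filter (0.112), without a trend (0.08) or with the replicate block (0.0529). GDF11 and GDF15, at -0.31 and -0.34, did not pass. The other 8 of the 12, among them the third TGF-beta isoform TGFB3 (0.70 to 1.05 FPKM), NODAL and the activin subunit INHBA, were below the filter, and BMP7 was listed at 0 in every library.

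Genes that store and release latent TGF-beta included 3 that rose and 0 that fell, of 9 tested. Of all genes tested, 6.16% were called higher and 6.11% lower. LTBP1, which ties the latent complex to the matrix, stood at 29.8 and 30.9 FPKM in NC and at 46.0 and 46.8 in SKA3-KD (log2 fold change 0.60, standard error 0.06, adjusted p = 0.0112, limma). FURIN, the protease that cuts the TGF-beta precursor, stood at 40.6 and 46.3 FPKM in NC and at 73.4 and 76.9 in SKA3-KD (log2 fold change 0.78, standard error 0.08, adjusted p = 0.0129, limma). ITGB5, an integrin subunit that pairs with ITGAV, rose by 0.50 (adjusted p = 0.022, limma), while ITGAV itself was at 0.06 and FBN1, the fibrillin that anchors latent complexes, at -0.01. LTBP4 had the lowest value, -0.28, without passing. The integrin subunit ITGB6 was at most 0.105 FPKM in any library.

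Among the other receptors of the superfamily ACVR1B rose, BMPR2 fell and 4 more were tested without passing. For comparison, 6.16% of all genes tested were called higher and 6.11% lower. BMPR2, the type II receptor for BMPs, stood at 3.53 and 3.59 FPKM in NC and at 2.0 and 1.98 in SKA3-KD (log2 fold change -0.61, standard error 0.09, adjusted p = 0.0238, limma). ACVR1B, a type I receptor for activin that also acts through SMAD2 and SMAD3, stood at 3.91 and 4.25 FPKM in NC and at 6.61 and 6.63 in SKA3-KD (log2 fold change 0.59, standard error 0.08, adjusted p = 0.0186, limma). The ratio of TGFBR2 to BMPR2 FPKM was 3.60 and 3.29 in NC and 10.4 and 10.6 in SKA3-KD. ENG, a co-receptor, was at 18.9 and 22.2 FPKM in NC and 25.2 and 24.2 in SKA3-KD, with a log2 fold change of 0.26 that did not pass (adjusted p = 0.134, limma). ACVRL1, ACVR1C, ACVR2A and BMPR1B were below the filter.

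**Figure D3:**
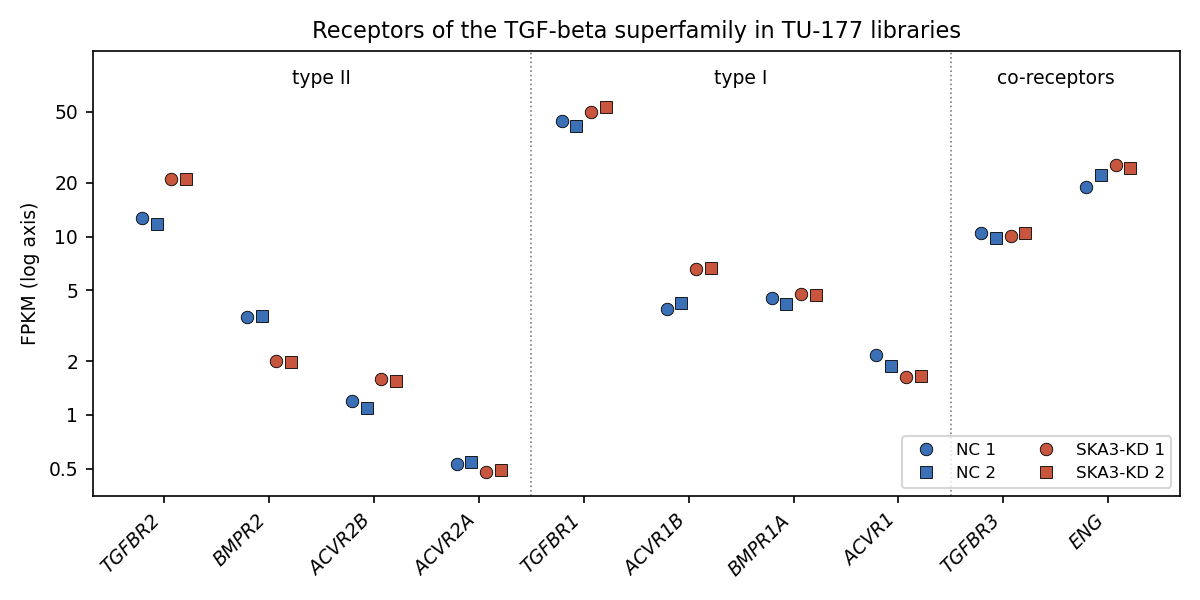
FPKM (log axis) of 10 type II receptors, type I receptors and co-receptors of the TGF-beta superfamily in each library (BMPR1B, ACVRL1 and ACVR1C, at most 0.545, are left out), with NC in blue and SKA3-KD in red. Among type II receptors TGFBR2 lies higher in SKA3-KD (20.9 and 21 against 12.7 and 11.8) and BMPR2 lower (2.0 and 1.98 against 3.53 and 3.59).

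The SMADs of the BMP branch stood beside those of the TGF-beta branch. SMAD6, the inhibitor that acts mainly on BMP signals, rose from 6.94 and 7.42 FPKM in NC to 9.60 and 10.7 in SKA3-KD (log2 fold change 0.45, standard error 0.08, adjusted p = 0.0342, limma). SMAD1 and SMAD5, which BMP receptors phosphorylate, were at -0.09 and -0.02, and neither passed. SMAD9 was at most 0.0969 FPKM.

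Among 18 tested regulators of the signal, 1 rose, 2 fell and 15 did not pass, beside 6.16% higher and 6.11% lower of all genes. PMEPA1, a target of the pathway that binds SMAD2 and SMAD3 and holds back their activation, stood at 15.0 and 15.9 FPKM in NC and at 24.2 and 28.3 in SKA3-KD (log2 fold change 0.73, standard error 0.09, adjusted p = 0.0174, limma). BAMBI, a decoy receptor without kinase activity, stood at 28.7 and 27.3 FPKM in NC and at 19.6 and 19.7 in SKA3-KD (log2 fold change -0.49, standard error 0.06, adjusted p = 0.0165, limma). FKBP1A, which binds type I receptors and keeps them inactive, fell by 0.37 on the log2 scale (adjusted p = 0.0295, limma). The ubiquitin ligases SMURF1 and SMURF2, at -0.05 and 0.11, and the co-repressors SKI and SKIL, at 0.23 and 0.04, did not pass.

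Of 25 genes listed as TGF-beta or BMP targets 18 were tested, and 2 rose and 2 fell. The shares over all genes tested were 6.16% higher and 6.11% lower. SNAI2, a transcription factor of epithelial-mesenchymal transition, stood at 9.37 and 8.07 FPKM in NC and at 3.79 and 3.34 in SKA3-KD (log2 fold change -1.09, standard error 0.10, adjusted p = 0.0112, limma). CDKN1A, the cell cycle inhibitor p21, fell by 0.38 (adjusted p = 0.0238, limma), while CDKN2B, the inhibitor p15, was at 0.22 without passing (adjusted p = 0.0832, limma). GADD45B rose from 4.42 and 4.25 to 6.62 and 6.58 FPKM (log2 fold change 0.51, adjusted p = 0.0207, limma). ANGPTL4, a secreted factor, stood at 3.10 and 2.95 FPKM in NC and at 5.5 and 8.44 in SKA3-KD (log2 fold change 0.96, adjusted p = 0.0374, limma), and its value was 0.69 without SKA3-KD 2. The BMP targets ID1 and ID3 were at 0.34 (adjusted p = 0.0511, limma) and -0.28 (adjusted p = 0.052, limma).

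**Figure D4:**
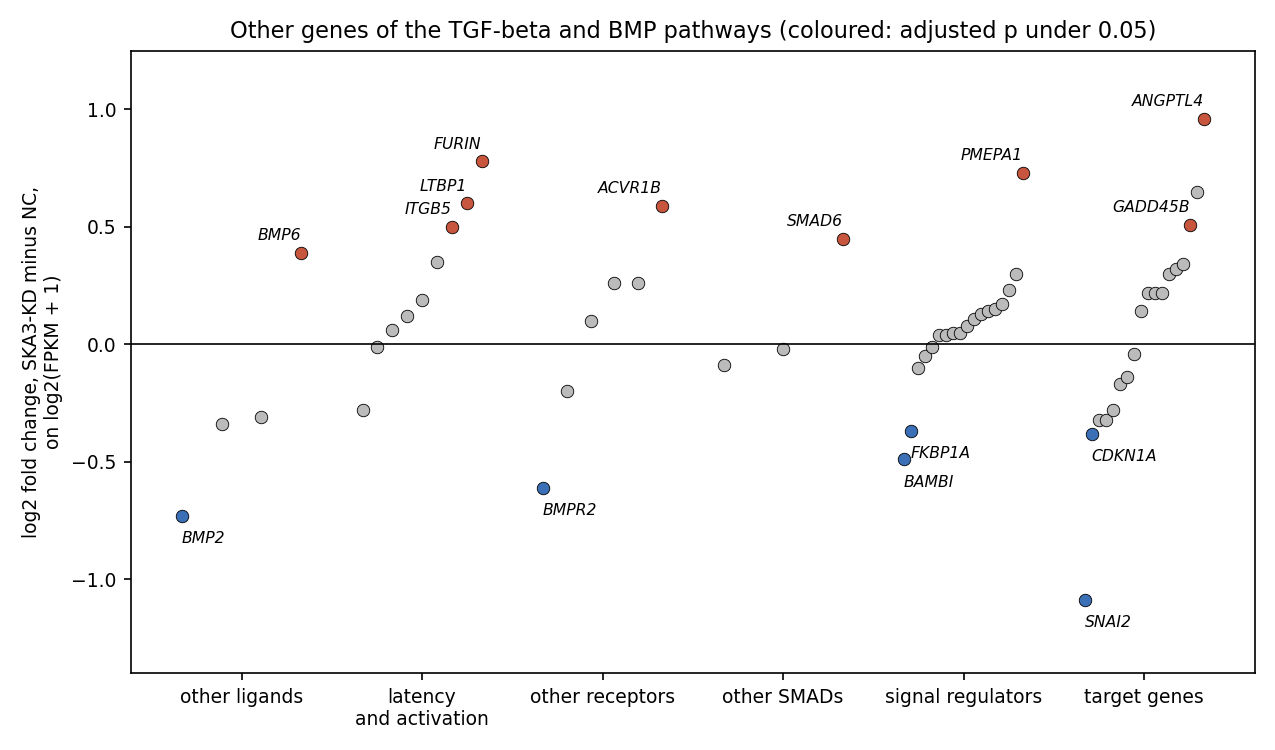
Log2 fold change (SKA3-KD minus NC, on log2(FPKM + 1)) of the 58 other pathway genes tested, by list, each gene as a point, red if higher and blue if lower at an adjusted p under 0.05, grey otherwise. Named points are the 9 higher genes, from BMP6 at 0.39 to ANGPTL4 at 0.96, and the 6 lower ones, from FKBP1A at -0.37 to SNAI2 at -1.09.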

How the data were processed

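RNA from 4 TU-177 libraries (2 NC, 2 SKA3-KD) was sequenced on an Illumina HiSeq instrument. The authors deposited FPKM values per gene. The submitters' processing notes name the hg19 build, Bowtie2 2.2.8, HISAT2, StringTie 1.3.1 and Cuffdiff 2.1.1 without their roles. Symbols, exon lengths and positions came from GENCODE 29 on GRCh38, by Ensembl identifier, for 27199 of 28729 genes, so positions are not on the build of the values. The steps of low FPKM values gave library sizes of 11966130 (NC 1), 9015056 (NC 2), 10177854 (SKA3-KD 1) and 11793604 (SKA3-KD 2) reads, and whole reads, within 0.02 of a read, for 96.7% of tested genes (61.4% by the GENCODE 29 exon length, 35.3% by another length). Reads of TGFBR3, SMAD2, SMAD4, SMAD7 and TGFBI rest on such another length. Recovered reads on genes came to 102.0% (NC 1), 101.0% (NC 2), 102.6% (SKA3-KD 1) and 102.4% (SKA3-KD 2) of the library sizes. They thus exceed the totals, and the cause was not tested. Read numbers, counting errors and voom rest on this recovery. Counting errors cover sampling only. Replicates differed by more than sampling noise (chi-square per degree of freedom 3.46 in each group).

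Groups were compared with limma 3.58.1 (R 4.3.3; lmFit, then eBayes using the mean-variance trend) on log2(FPKM + 1) over the 12645 genes averaging at least 1 FPKM. Fold changes on that scale understate changes of low genes. P-values were adjusted by Benjamini-Hochberg over all genes tested (threshold 0.05), never over the members alone. Named by rule were the 10 members, SKA3, list genes past the threshold and the 3 genes nearest in profile to the member with the largest fold change, and further list genes were named after their values were seen. Members and lists were chosen with earlier results of these data known, and a few list genes are not reported here. Other settings changed the pseudocount (0.1), the filter (none, or a mean of 5 FPKM), the scaling (median of ratios, quantile), the eBayes setting (no trend, robust), the threshold (0.1) and the samples (each library left out), or took the replicate number as a block. Limma voom on recovered reads and a loess correction (span 0.5) for GC content and exon length, each over 12241 genes, were added after seeing the data. In a simulation of this comparison with 193 changed genes among 11995, limma on log2(FPKM + 1) found 91, with 11 false calls, and voom 155, with 6. False calls were thus 10.8% of the calls of the first, above the threshold of 0.05, and 3.73% of those of voom. The simulation gave all genes the same dispersion, and a smaller share of genes changed in it than the 12.3% called in the data.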

Additional observations from a re-analysis of the deposited data

How the results depend on the processing

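With all 4 libraries, TGFBR2 (0.72 to 0.77) and SKA3 (-1.26 to -1.04) were past the threshold in all 11 alternatives, and no member changed sign. TGFB1, TGFBR1 and SMAD3 passed with a mean of at least 5 FPKM (0.49, 0.26 and 0.40), where TGFB2 and SMAD4 were not tested. TGFB1, TGFB2, TGFBR1 and SMAD3 passed at an adjusted p under 0.1 (0.49, 0.44, 0.26 and 0.40), with limma voom on recovered reads (0.52, 0.59, 0.27 and 0.47) and with the GC and length correction (0.42, 0.48, 0.29 and 0.37). The replicate block added SMAD3 (0.40) and made the members called higher 2. Members called higher were 4 with a mean of at least 5 FPKM, and 5 under each of those other 3 settings, against 1. No member was called lower under any setting by limma or voom. At an unadjusted p under 0.05, 0 were lower in the main comparison and with voom, and 1 with the GC and length correction. Of all genes tested 1912, 2152 and 2157 were lower at that limit, in the same order. Same-numbered libraries deviated from their group means with a correlation of 0.097 over genes. Whether they share more than a number was not tested. The block gave 965 lower and 1002 higher genes against 772 and 779.

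With 1 library left out, where the lone library is assumed to vary like the other group, 0 members passed, with TGFBR2 between 0.68 and 0.78, and 3 to 6 were higher at an unadjusted p under 0.05. SKA3 lay between -1.14 and -1.04 and did not pass without NC 1 or NC 2. TGFBR3 ranged from -0.03 (without NC 2) to 0.07, with -0.00 without SKA3-KD 2, and SMAD4 from -0.15 to 0.01 (without SKA3-KD 1). Other pathway genes called then numbered 0 to 1 higher and 0 to 2 lower, and all genes 0 to 46 higher and 0 to 135 lower, with 1363 to 1797 higher at an unadjusted p under 0.05. Fewer samples enter these fits.

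Other pathway genes called higher (9 in the main comparison) were 1 without the filter, 14 at an adjusted p under 0.1 and 18 with voom. Those called lower (6) were 1 without the filter and 11 each with voom and with the GC and length correction. All genes called higher were 48 without the filter, 312 without a trend, 1442 at an adjusted p under 0.1, 1710 with voom and 1310 with the GC and length correction. All genes called lower were 81, 381, 1356, 1519 and 1243 in the same order. More genes are tested without the filter, and the cause of the other shifts was not tested. Of 163 values of the 15 named pathway genes with all 4 libraries, 22 lost the call, 13 of them without the filter and 6 without a trend, and 0 changed sign. BMP6 lost it in 5 alternatives with all 4 libraries, both scalings and the block included.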
